A study of Fraxinus excelsior with 182 samples.

Results

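Protein kinases pass signals on by adding phosphate to other proteins, and 4 kinase genes of European ash (Fraxinus excelsior) are described here as they are expressed in leaves. They are Fe_g38091, Fe_g41707.2, Fe_g22337 and Fe_g33197.2, chosen by identifier because the study placed them among genes whose leaf expression was associated with damage by ash dieback, the disease caused by the fungus Hymenoscyphus fraxineus. They are 4 of the 42665 gene models in the deposited table. All 4 passed the filter on low values, a level of at least 1 TPM (transcripts per 1000000) in at least 19 trees, as did 31003 gene models in all. Because that choice was made on the trees described below, relations among the kinases cannot serve as separate support for a link with the disease.

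The data are 182 RNA-Seq libraries, 1 for the leaves of each of 182 Danish ash accessions. The trees carry no genotype, treatment or time label, and they therefore form 1 group. The 100 bp Illumina reads came from an earlier study by Harper and colleagues, and the authors of the present series quantified them as TPM against the coding sequences of their long-read ash genome. TPM is a length-normalised abundance that sums to 1000000 in every tree, so levels of different genes can be set side by side, while the read depth is unknown. Damage scores of the trees were not used here.

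Receptor-like kinases sit in the plasma membrane, with a part outside the cell that binds a ligand or another receptor and a kinase inside the cell. In cysteine-rich receptor-like kinases the outer part carries repeats of the stress-antifung domain (also called DUF26), and members of this family in Arabidopsis are known for responses to pathogens and oxidative stress. Leucine-rich repeat (LRR) receptor-like kinases are the largest receptor kinase family of plants, and a subset of them also has a malectin domain, which is related to a carbohydrate-binding protein. AFC2 belongs to a different class: in Arabidopsis it is a LAMMER-type kinase of the nucleus that phosphorylates serine/arginine-rich splicing factors. By the study's annotation Fe_g38091 is a cysteine-rich receptor-like kinase, Fe_g41707.2 and Fe_g22337 are LRR receptor-like serine/threonine kinases with a malectin domain that share an orthologous group, and Fe_g33197.2 is AFC2.

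The libraries had between 31244 and 34889 genes above 0 TPM, the 10 most abundant genes held between 4.25% and 20% of a library's TPM, and no pair of trees had identical values. All 4 plastid genes used as a check of the leaf label were at 1 TPM or more in 182 of 182 trees, with mean levels from 14.1 to 922.7 TPM. Since 24984 gene models were above 0 TPM in every tree, such a check cannot tell leaf from another tissue.

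The first question was how strongly the kinases are expressed and how much they differ from tree to tree. The cysteine-rich receptor-like kinase Fe_g38091 had a mean level of 9.75 ± 6.73 TPM (SD, n = 182). In single trees the lowest level was 0.663 TPM, its median 8.48 TPM and its highest 34.2 TPM, a 51.6-fold range. The middle of the trees was wide as well, with quartiles at 4.34 and 13.6 TPM, and 3 trees lay under 1 TPM. The coefficient of variation was 69%, above that of 78.5% of the genes that passed the filter, for which the median was 38%.

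Both LRR receptor-like kinases were expressed at a lower level and varied as widely. Fe_g41707.2 was at 3.09 ± 1.97 TPM (SD, n = 182), with a lowest value of 0.215, a median of 2.58 and a highest value of 11.8 TPM. Fe_g22337 was at 1.86 ± 1.24 TPM (SD, n = 182), with a lowest value of 0.306, a median of 1.52 and a highest value of 7.98 TPM. These genes are low for leaf transcripts, since their means exceeded those of 27.5% and 17.6% of the genes that passed the filter, and 42 trees had under 1 TPM of Fe_g22337. Their coefficients of variation were 63.7% and 66.9%.

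The AFC2 gene Fe_g33197.2 was the most abundant of the 4 and nearly even across trees. Its level was 19.8 ± 2.80 TPM (SD, n = 182), with a lowest value of 12.2, a median of 19.8 and a highest value of 26.4 TPM, a 2.17-fold range. With a coefficient of variation of 14.2%, it was more variable than just 2.05% of the genes that passed the filter. The part of counting error in these coefficients was not tested, because TPM does not keep depth. A lower level in a whole leaf can come from fewer cells that express a gene or from less RNA per cell, and these cannot be told apart.

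**Figure D1:**
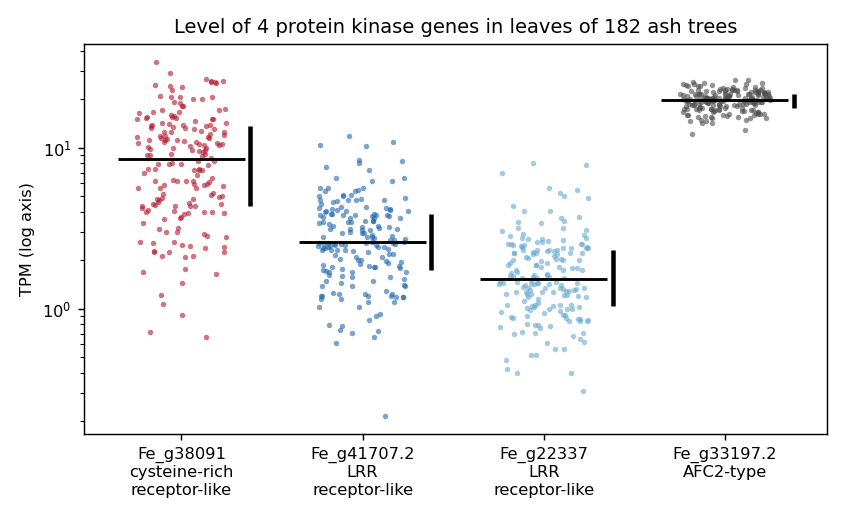
Level of each kinase gene in leaves of 182 trees, in TPM on a log axis. Each point is a tree, the horizontal line is the median and the vertical bar beside it spans the quartiles. The 3 receptor-like kinases spread over a 26.1-fold to 54.8-fold range, whereas Fe_g33197.2 stays between 12.2 and 26.4 TPM.

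No kinase divided the trees into separate groups. The density of log2(TPM + 1) had 1 peak for each gene, and no tree was at 0 for any of them. Taken pair by pair, the order of the levels was the same in at least 88.5% of trees. Trees that kept the whole order were not counted. Fe_g33197.2 was above Fe_g41707.2 and above Fe_g22337 in 182 of 182 trees, and above Fe_g38091 in 91.2% of them. Fe_g38091 was above Fe_g41707.2 in 88.5% of trees and above Fe_g22337 in 96.2%. Fe_g41707.2 was above Fe_g22337 in 91.8% of trees. The ranges of genes next to each other in this order overlapped across trees.

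The trees at the ends of these ranges differed by kinase. The tree Ash181 was highest for both LRR kinases, at 11.8 TPM of Fe_g41707.2 and 7.97 TPM of Fe_g22337. Its Fe_g38091 level of 9.55 TPM lay close to that gene's mean. The tree Ash102 was highest for Fe_g38091, at 34.2 TPM, and had 4.74 TPM of Fe_g41707.2 and 2.92 TPM of Fe_g22337. The tree Ash218 was lowest for Fe_g33197.2, at 12.2 TPM, but had 15.3 TPM of Fe_g38091.

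The second question was whether trees with more of one kinase also had more of another. Over the 182 trees, relations were measured by rank (Spearman's rho), by Pearson's r on TPM and by Pearson's r on log2(TPM + 1). For the 6 pairs, two-sided permutation tests drew 100000 resamples, so that 1e-05 is the smallest p, and limma gave an adjusted p over all genes tested. For each kinase, limma called between 20.6% and 31.7% of the other genes as rising with it, so a call alone says little about a pair.

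The LRR pair stood out by its size. For Fe_g41707.2 and Fe_g22337, rho was 0.793 and r on TPM was 0.867, each with a permutation p of 1e-05. Leaving out the 2 trees farthest from the Fe_g41707.2 median gave an r of 0.840. On the log2 scale r was 0.824 (95% interval 0.771 to 0.866, limma adjusted p = 8.65e-42). In TPM, Fe_g41707.2 had a median of 1.67 times the level of Fe_g22337, and the ratio ran from 0.304 to 4.38.

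The other 5 pairs were related more loosely, and all were positive. AFC2 and the LRR kinases came next. For Fe_g22337 and Fe_g33197.2, rho was 0.511 and r on TPM was 0.389, each with a permutation p of 1e-05. Without the 2 trees farthest from the Fe_g22337 median, r was 0.411. For Fe_g41707.2 and Fe_g33197.2, rho was 0.430 and r on TPM was 0.386, again with a permutation p of 1e-05. Without the 2 trees farthest from the Fe_g41707.2 median, r was 0.40. On the log2 scale their limma adjusted p-values were 4.3e-09 and 3.34e-07.

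The cysteine-rich kinase Fe_g38091 was less closely related to the rest. With Fe_g41707.2 its rho was 0.374 and its r on TPM was 0.385 (permutation p = 1e-05), with an r of 0.390 without the 2 farthest trees and a limma adjusted p of 1.77e-05. With Fe_g22337 the rho was 0.344 (permutation p = 1e-05) and the r 0.324 (permutation p = 2e-05), or 0.304 without those trees, and the adjusted p was 0.000132. With Fe_g33197.2 the rho was 0.287 (permutation p = 8e-05) and the r 0.308 (permutation p = 4e-05), or 0.297 without them, with an adjusted p of 0.00199. The relations with Fe_g33197.2 depended on how the libraries were scaled. With median-of-ratios scaling of the TPM values, r on the log2 scale for Fe_g38091 and Fe_g33197.2 went from 0.287 to 0.144 and the limma adjusted p to 0.159. For Fe_g41707.2 and Fe_g33197.2 it went from 0.429 to 0.222 (limma adjusted p = 0.0292), and for Fe_g22337 and Fe_g33197.2 from 0.473 to 0.251 (limma adjusted p = 0.00869). The 3 pairs among the receptor-like kinases passed the test under that scaling as well, at an r of 0.802 for the LRR pair and of 0.335 and 0.292 for Fe_g38091 with Fe_g41707.2 and Fe_g22337.

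**Figure D2:**
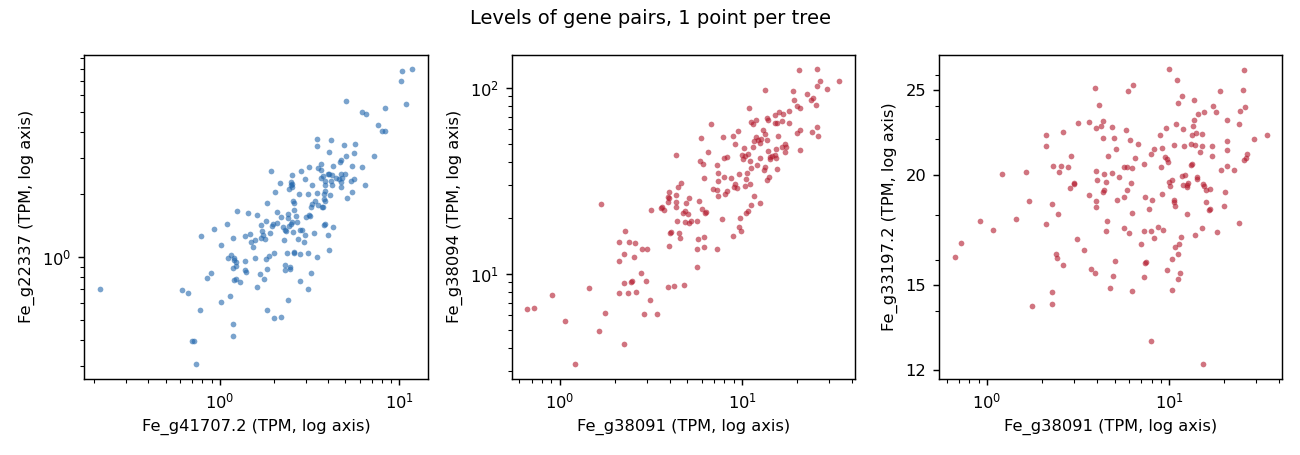
Levels of 3 gene pairs, 1 point per tree, in TPM on log axes over 182 trees. The LRR kinases Fe_g41707.2 and Fe_g22337 (r = 0.824 on the log2 scale) and Fe_g38091 with Fe_g38094 (r = 0.871) lie along a line, and Fe_g38091 with Fe_g33197.2 (r = 0.287) forms a broad cloud.

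Large parts of leaf expression rise and fall together across trees, and the kinases were placed on these shared axes as principal components of all other tested genes. The first component held 30.5% of the variance of leaf expression, but at most 1.45% of the variance of any of the 4 kinases. The third component held only 3.68% of leaf variance. It took 54.5% of the variance of Fe_g33197.2, 29.2% of Fe_g22337, 24.8% of Fe_g41707.2 and 5.53% of Fe_g38091. The second component took 12.4%, 12.9% and 11.2% of Fe_g38091, Fe_g41707.2 and Fe_g22337 and 1.92% of Fe_g33197.2. Measures of the libraries moved with the same components. The second component shared 27.3% of its variance with the number of genes detected, and the third shared 17.5% with the rank of the tree number. With the number of genes detected as a covariate all 6 kinase pairs still passed the test.

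Together the first 5 components accounted for 57.1% of the variance of Fe_g33197.2, 41.8% of Fe_g22337, 40.6% of Fe_g41707.2 and 22.2% of Fe_g38091. The median over all tested genes was 49.7%, so the cysteine-rich kinase was the one with most of its variation outside these axes. Component 8, which was not among the 5, took 10.4% of Fe_g38091 and at most 0.661% of the other kinases.

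**Figure D3:**
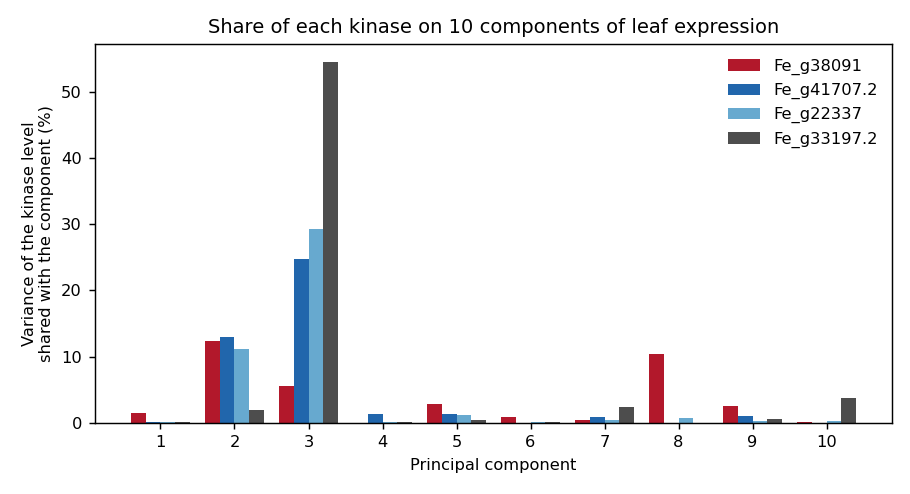
Share of the variance of each kinase's log2(TPM + 1) that lies on each of the first 10 principal components of leaf expression, in percent, over 182 trees. The tallest bar is Fe_g33197.2 on component 3, at 54.5%, and Fe_g38091 is the only kinase with a bar over 1% on component 8, at 10.4%.

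After removal of 5 components the LRR pair remained related and the others did not pass the test. Fe_g41707.2 and Fe_g22337 kept an r of 0.710 (95% interval 0.629 to 0.776, permutation p = 1e-05, limma adjusted p = 4.41e-24) and a rho of 0.575. Fe_g41707.2 and Fe_g33197.2 went from 0.429 to 0.00269 (95% interval -0.145 to 0.150, limma adjusted p = 0.997). Fe_g22337 and Fe_g33197.2 went from 0.473 to 0.0421 (95% interval -0.106 to 0.188, limma adjusted p = 0.991). These intervals leave room for weak relations of either sign. Both values rested on the number of components, since with 2 removed r was 0.412 and 0.459 and each passed the test (limma adjusted p = 1.11e-06 and 1.42e-08).

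Fe_g38091 retained weak positive values. With Fe_g41707.2 the r after removal was 0.185 (95% interval 0.0388 to 0.324). Its permutation p was 0.012, but the limma adjusted p over all genes was 0.755. With Fe_g22337 it was 0.131 (95% interval -0.0171 to 0.273, limma adjusted p = 0.950), and with Fe_g33197.2 it was 0.0860 (95% interval -0.0623 to 0.231, limma adjusted p = 0.752). The number of components mattered for these pairs too. With 2 components removed in place of 5, r was 0.303, 0.267 and 0.255, and each passed the test.

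**Figure D4:**
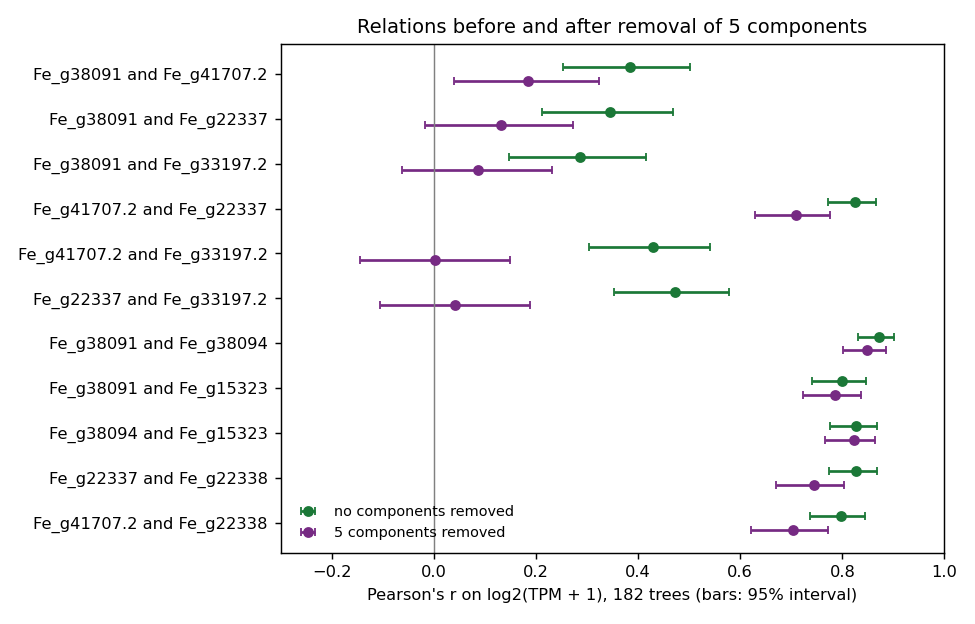
Pearson's r on log2(TPM + 1) over 182 trees for the 6 kinase pairs and for 5 pairs with their closest genes, before (green) and after (purple) removal of 5 principal components, with 95% intervals as bars. The LRR pair and the pairs with closest genes stay at 0.704 or more, and the other 5 kinase pairs fall to between 0.00269 and 0.185.

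The third question was which genes follow each kinase most closely. For Fe_g38091 these were Fe_g38094 and Fe_g15323, neither of which has an annotation in the sources used here. Fe_g38094 had 37.5 ± 25.7 TPM (SD, n = 182), from 3.25 in the lowest to 125.7 TPM in the highest tree. It exceeded Fe_g38091 in 182 of 182 trees, by a median ratio of 3.94. Their r on the log2 scale was 0.871 (95% interval 0.831 to 0.902, limma adjusted p = 1.27e-53), and it was 0.848 after removal of 5 components.

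Fe_g15323 was more abundant still, at a mean of 156.4 TPM over 182 trees with a coefficient of variation of 70.3%, and it lay between 5.94 and 548.9 TPM. It exceeded Fe_g38091 in 99.5% of trees. Its r with Fe_g38091 was 0.800 (95% interval 0.741 to 0.847, limma adjusted p = 4.09e-38), and 0.786 with 5 components removed. Fe_g38094 and Fe_g15323 were related to each other at an r of 0.827, so the 3 genes formed a set in which each rose with the others. With Fe_g15323 held fixed the partial r of Fe_g38091 and Fe_g38094 was 0.621, and with Fe_g38094 held fixed that of Fe_g38091 and Fe_g15323 was 0.288. In the tree Ash102, highest for Fe_g38091, Fe_g38094 ranked 4 and Fe_g15323 ranked 2 from the top. In the tree Ash205, lowest for Fe_g38091 with 0.663 TPM, they had 6.46 and 20.5 TPM.

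Beyond this set the relations of Fe_g38091 dropped off. Here and for the other kinases, genes that follow the closest 2 are named after their values were seen. Only 5 genes reached 0.5 in r: Fe_g38094, Fe_g15323 together with Fe_g18108.1 (r = 0.532), Fe_g5617.1 (r = 0.526) and Fe_g27978 (r = 0.509). The study annotates Fe_g18108.1 as a non-lysosomal glucosylceramidase, an enzyme that breaks down glucosylceramide lipids. With 5 components removed, the closest gene behind the set was Fe_g9868, at an r of 0.387. At the other end Fe_g9348 and Fe_g3855 had the lowest r with Fe_g38091, at -0.413 and -0.387 (limma adjusted p = 3.75e-06 and 1.9e-05). With these components removed, the lowest was Fe_g1708, at -0.390 (limma adjusted p = 0.000685). The r of Fe_g1708 depended on the components. Without them it was -0.00843 (limma adjusted p = 0.950). With 2 removed it was -0.448 (limma adjusted p = 2.72e-06), and with 10 it was -0.222 (limma adjusted p = 0.554).

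The LRR kinases had the same pair of closest genes, each other and Fe_g22338, which has no annotation in the sources used here. Fe_g22338 had 7.26 ± 3.33 TPM (SD, n = 182), from 1.998 in the lowest to 20.2 TPM in the highest tree. It exceeded Fe_g22337 in 182 of 182 trees, by a median ratio of 4.19, and Fe_g41707.2 in 182 of 182 trees, by a median ratio of 2.41. Its r with Fe_g22337 was 0.826 (limma adjusted p = 2.22e-42) and with Fe_g41707.2 0.797 (limma adjusted p = 3.3e-37). With 5 components removed these were 0.744 and 0.704. With Fe_g22338 held fixed, the partial r of the LRR pair was 0.487.

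The gap to the next gene was wide for both. Behind the closest genes, Fe_g8799 had an r of 0.549 with Fe_g41707.2, and Fe_g22833 an r of 0.602 with Fe_g22337. After removal of 5 components the next values were 0.302 for Fe_g33056 with Fe_g41707.2 and 0.319 for Fe_g41716 with Fe_g22337. Fe_g15902 had the lowest r with both, at -0.478 and -0.474 (limma adjusted p = 8.54e-09 and 2.8e-09). It was followed by Fe_g31387 with Fe_g41707.2, at -0.474, and by Fe_g34981.1 with Fe_g22337, at -0.465.

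Fe_g33197.2 had no partner of that kind. Its closest genes were Fe_g28984.3, annotated by the study as a member of the cyclin family, at an r of 0.687, and Fe_g5601, at an r of 0.678 (limma adjusted p = 9.02e-21 for each). Both were low and even, at 4.27 ± 0.648 and 2.75 ± 0.613 TPM (SD, n = 182), and further genes followed closely, the third, Fe_g34847, at an r of 0.669. The lowest were Fe_g25449 at -0.569 and Fe_g2643 at -0.565. After removal of 5 components the closest were Fe_g23310 at 0.446 and Fe_g40201 at 0.407 (limma adjusted p = 1.35e-05 and 0.000435), and the lowest was Fe_g24739 at -0.386 (limma adjusted p = 0.000998).

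Counts over all genes gave the same contrast. An r of 0.5 or more was reached by 5 genes with Fe_g38091, 19 with Fe_g41707.2, 84 with Fe_g22337 and 530 with Fe_g33197.2, of 31002 tested. An r of -0.5 or less was reached by 11 genes with Fe_g33197.2 and by none with the others, although limma called 410, 889 and 861 genes as falling with those kinases. After removal of 5 components 2 genes remained at 0.5 or more with each receptor-like kinase, and these were the closest genes named above. With Fe_g33197.2 none remained, while limma still called 565 genes and 4854 had an unadjusted p under 0.05. With median-of-ratios scaling the counts at 0.5 or more were 2, 2, 3 and 85, and those at -0.5 or less were 0, 1, 0 and 242, so that strong negative relations of Fe_g33197.2 then outnumbered strong positive ones.

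**Figure D5:**
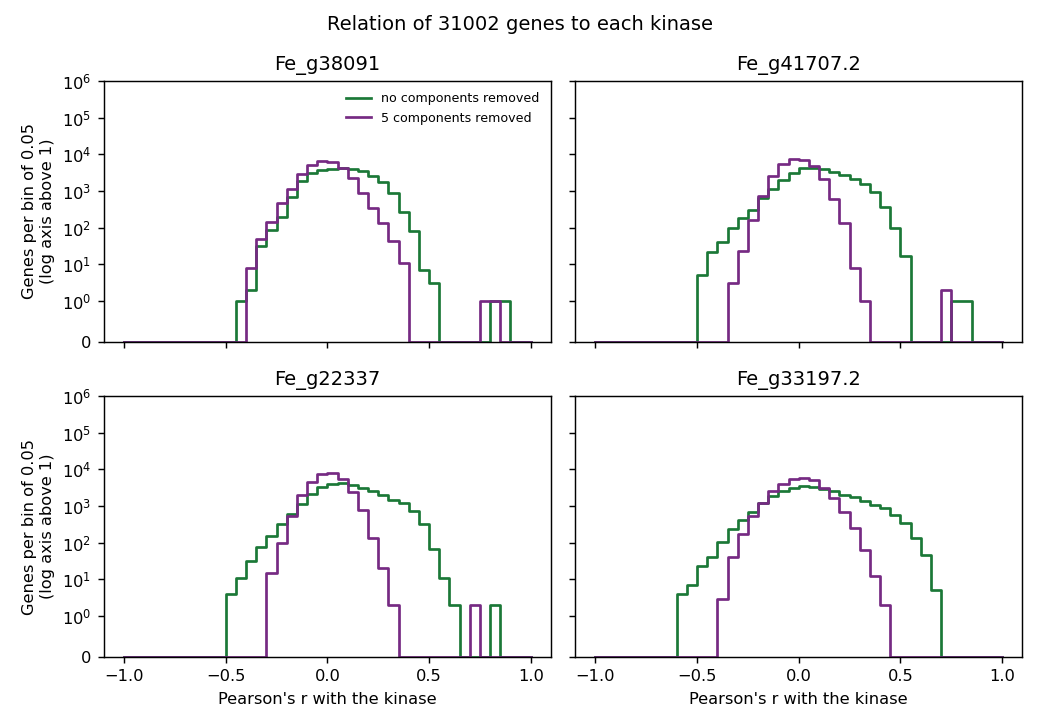
Number of genes in each bin of 0.05 of Pearson's r with the kinase, over 31002 genes and 182 trees, before (green) and after (purple) removal of 5 principal components. The count axis is linear up to 1 and logarithmic above it. For the 3 receptor-like kinases, 2 genes lie apart at 0.704 or more, and for Fe_g33197.2 the genes form 1 continuous hump that ends at 0.687.

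By limma, 6386 genes rose (20.6%) and 410 fell (1.32%) with Fe_g38091, 9100 rose (29.4%) and 889 fell (2.87%) with Fe_g41707.2, 9834 rose (31.7%) and 861 fell (2.78%) with Fe_g22337, and 9421 rose (30.4%) and 2122 fell (6.84%) with Fe_g33197.2. The excess of rising genes followed the scaling. The share of called genes that rose was 94%, 91.1%, 91.9% and 81.6% on TPM as deposited, and 52.9%, 57.4%, 57.4% and 50.9% with median-of-ratios scaling. The median r over all genes moved from between 0.0715 and 0.0966 to between -0.00242 and 0.00908.

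With 5 components in the fit, limma called 296 genes with Fe_g38091, of which 48.6% rose (0.464% of genes tested rose and 0.490% fell), and 337 rose (1.09%) and 228 fell (0.735%) with Fe_g33197.2. Without the 9 trees farthest on component 1, 189 genes were called with Fe_g38091, and with 10 components 2 were called with it and 19 with Fe_g33197.2. With Fe_g41707.2 only Fe_g22337 and Fe_g22338 rose (0.00645% of genes) and only Fe_g6619 fell (0.00323%), the last at an r of -0.337 (limma adjusted p = 0.0421). Fe_g6619 did not pass with median-of-ratios scaling, a pseudocount of 0.1, rank correlation, 10 components or without the 9 trees, where its adjusted p lay between 0.0539 and 0.7. With Fe_g22337 only Fe_g22338 and Fe_g41707.2 were called, and Fe_g15447, the lowest at an r of -0.288, did not pass (limma adjusted p = 0.567). In that fit 1696 genes had an unadjusted p under 0.05. The closest genes of the 3 receptor-like kinases were called, and were first or second in r, in all 18 fits run for each, with an r of at least 0.817 for Fe_g38094 and 0.751 for Fe_g15323 with Fe_g38091. The lowest values for the LRR kinases and Fe_g22338 lay between 0.575 and 0.614.

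Salmon divides reads that match several similar coding sequences among them, and the coding sequences were not used here. Values of the LRR pair may therefore share reads, as may those of either set with its closest genes, and the part of shared reads in these relations was not tested. Identifiers gave some information on where the genes lie in the table. Fe_g22338 follows Fe_g22337 directly. Fe_g38094 is separated from Fe_g38091 by Fe_g38092.1 and Fe_g38093, which were at means of 0.220 and 0.721 TPM.

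Being next in number did not by itself go with a close relation. The 2 nearest identifiers on either side of each kinase gave 16 relations, each with rho and r on TPM and a permutation test, and p-values were adjusted over these 32 tests. For Fe_g22337 with Fe_g22338, rho was 0.802 and r was 0.873 (permutation p = 1e-05, adjusted p = 0.00016). Leaving out the 2 farthest trees gave 0.855. The other 15 had a rho between -0.132 and 0.315, and 8 of them passed both tests. Of the 16 neighbours, 13 passed the filter on low values. A pass alone says little here. On the log2 scale limma gave 10533 to 13906 of all 31002 genes an unadjusted p under 0.05 with a kinase. No other model of the 4 gene numbers was in the table.

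The fourth question was how other genes of related function followed the kinases. The study's table of damage-associated genes held 2 further kinases, 6 signalling genes, 4 RNA-processing genes and 6 genes of membrane trafficking among those annotated in these roles, 18 in all. The study chose them on these same trees, so their counts are not independent evidence of direction. Over all genes 20.6%, 29.4%, 31.7% and 30.4% rose with Fe_g38091, Fe_g41707.2, Fe_g22337 and Fe_g33197.2. Of the 18, 17 rose with Fe_g38091, 16 with Fe_g41707.2, 17 with Fe_g22337 and 14 with Fe_g33197.2, and all 18 had a positive r with each kinase. Their median r was 0.287, 0.328, 0.363 and 0.393, where the median over all genes was 0.0715, 0.0934, 0.0966 and 0.0737. With median-of-ratios scaling 9, 7, 9 and 12 rose, and the calmodulin-binding gene Fe_g45748 fell with Fe_g33197.2 (r = -0.246, limma adjusted p = 0.00287). Of all 31002 genes tested, 2694, 2449, 3261 and 7573 rose under that scaling. With 5 components in the fit 1, 0, 0 and 0 of the 18 rose. Among all 32 listed genes, which include the MADS-box and plastid genes below, 16, 5, 4 and 9 then had an unadjusted p under 0.05. Over all 31002 genes tested, 3386, 1840, 1696 and 4854 had one.

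Among the signalling genes Fe_g7132, which has the CG-1 DNA-binding domain of calmodulin-binding transcription activators, had the highest r with all 4 kinases on TPM as deposited without components. Its r was 0.491 with Fe_g38091, 0.465 with Fe_g41707.2, 0.488 with Fe_g22337 and 0.484 with Fe_g33197.2. With median-of-ratios scaling its r with Fe_g33197.2 was 0.197, below the 0.424 of Fe_g32367.1, and with 5 components removed its r with Fe_g41707.2 was 0.0615, below the 0.173 of Fe_g39227. It was also the listed gene that still rose with Fe_g38091 after removal of 5 components, at an r of 0.311 (limma adjusted p = 0.00958). Its level was 3.46 ± 1.27 TPM (SD, n = 182). The diacylglycerol kinase Fe_g16439, which phosphorylates a membrane lipid messenger, and the protein phosphatase 2C Fe_g32367.1, an enzyme class that removes phosphate from proteins, rose with each kinase, at an r from 0.365 to 0.420 and from 0.285 to 0.423. With median-of-ratios scaling Fe_g16439 did not pass with Fe_g33197.2 (r = 0.123), nor Fe_g32367.1 with either LRR kinase (r = 0.138 for each).

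Of the further kinases Fe_g10961.1, a serine/threonine kinase, rose with all 4, at an r from 0.415 with Fe_g38091 to 0.555 with Fe_g33197.2. Fe_g18326, with a wall-associated receptor kinase domain, was at only 0.642 ± 0.403 TPM (SD, n = 182). It rose with Fe_g38091 (r = 0.210, or 0.174 and not called with median-of-ratios scaling) and Fe_g33197.2 (r = 0.188) and did not pass with the LRR kinases (r = 0.148 and 0.155).

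RNA processing is the field in which AFC2 acts in Arabidopsis. With Fe_g33197.2, 3 of the 4 listed genes rose, where 30.4% of all genes rose. They were the arginine/serine-rich protein gene Fe_g3737 (r = 0.530), Fe_g39849.1, related to the exon junction protein CASC3/Barentsz (r = 0.490), and the heterogeneous nuclear ribonucleoprotein Fe_g36608 (r = 0.40). The far upstream element-binding protein Fe_g45360 had an r of 0.141 (limma adjusted p = 0.125). All 4 rose with each LRR kinase, at an r from 0.288 to 0.495, where 29.4% and 31.7% of all genes rose. With Fe_g38091, 3 of the 4 rose as well, where 20.6% of all genes rose. With median-of-ratios scaling 1 rose with Fe_g38091, 2 with Fe_g41707.2 and 3 each with Fe_g22337 and Fe_g33197.2. Under that scaling 2694, 2449, 3261 and 7573 of all 31002 genes rose with those kinases. In membrane trafficking the epsin Fe_g18776, an adaptor of clathrin-coated vesicles, had the highest r with Fe_g33197.2 (0.566). It was followed by SEC1B Fe_g36201 (0.480), a regulator of vesicle fusion, and by the transmembrane 9 superfamily gene Fe_g21866.2 (0.40). All 6 trafficking genes rose with every kinase on TPM as deposited, where 20.6% to 31.7% of all genes rose. With median-of-ratios scaling 3, 2, 3 and 5 of them rose, where 2694, 2449, 3261 and 7573 of 31002 genes did. No RNA-processing or trafficking gene passed with any kinase once 5 components were in the fit.

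Without components, MADS-box transcription factors, which control flowering and dormancy, were called mainly with the cysteine-rich kinase. The list leaves out Fe_g18379, a MADS-box gene that the study also associated with damage. Of 10 listed, 7 rose with Fe_g38091, where 20.6% of all genes rose. With median-of-ratios scaling 4 did, where 2694 of 31002 genes rose. The 7 were led by the JOINTLESS-like genes Fe_g18373.1 (r = 0.288), Fe_g18375 (r = 0.258) and Fe_g18376 (r = 0.237). The latter pair also rose with Fe_g41707.2, at an r of 0.184 and 0.197, and these 2 were the only ones (none with median-of-ratios scaling), where 29.4% of all genes rose. With Fe_g22337 and Fe_g33197.2 limma called none of the 10, while 1 and 2 had an unadjusted p under 0.05 and a rank correlation called 0 and 2. Of all 31002 genes, 13119 and 13906 had an unadjusted p under 0.05 in the limma fits with these kinases. The SVP-like gene Fe_g22999 had a negative r with Fe_g38091 that did not pass (r = -0.145, limma adjusted p = 0.146). With median-of-ratios scaling this r was -0.192 (limma adjusted p = 0.0532), and Fe_g22999 fell with Fe_g33197.2 (r = -0.194, limma adjusted p = 0.0200). Whether the relation differs between kinases was not tested. With 5 components in the fit none was called with Fe_g38091, where 8 of the 10 and 3386 of all 31002 genes had an unadjusted p under 0.05. With the same components 6 of the 10 had an unadjusted p under 0.05 with Fe_g33197.2, and 2 with each LRR kinase. Over all 31002 genes 4854 had one with Fe_g33197.2, 1840 with Fe_g41707.2 and 1696 with Fe_g22337. The only MADS-box call in these fits was Fe_g36254, which rose with Fe_g33197.2 (r = 0.284, limma adjusted p = 0.0191).

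The listed plastid genes went the opposite way. They too are among the study's damage-associated genes, chosen on these same trees, so their counts are not independent evidence of direction. Of 4 listed, 1 fell with Fe_g38091, 4 with Fe_g41707.2, 3 with Fe_g22337 and 4 with Fe_g33197.2, where 1.32%, 2.87%, 2.78% and 6.84% of all genes fell. With median-of-ratios scaling 3, 4, 4 and 3 of them fell, among 2402, 1818, 2424 and 7314 falling genes of 31002, and the r of the DVR gene Fe_g5474 with Fe_g33197.2 went from -0.176 to 0.0151. Coproporphyrinogen oxidase Fe_g32180, an enzyme of the tetrapyrrole pathway that leads to chlorophyll and haem, was the one that fell with all 4, at an r of -0.246, -0.430, -0.40 and -0.467. None was called with 5 components in the fit, where its r was 0.0619, -0.00019, 0.0640 and 0.101.

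The number in a tree's name is the only number the labels give, and what it stands for is not stated. The AFC2 gene Fe_g33197.2 was lower in trees of higher number, at an r of -0.340 with the rank of the number (limma adjusted p = 0.000114), as were 14.5% of all genes, while 5.96% were higher. With median-of-ratios scaling its r was -0.267 (limma adjusted p = 0.00383), and 3240 genes were lower and 3007 higher, against 4486 and 1848 on TPM as deposited. With 5 components in the fit its r was -0.0803 (limma adjusted p = 0.522). Fe_g22337 had an r of -0.171 (limma adjusted p = 0.0845), Fe_g41707.2 of -0.126 (limma adjusted p = 0.238) and Fe_g38091 of 0.0507 (limma adjusted p = 0.700). With the tree number as a covariate all 6 kinase pairs still passed the test.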

How the data were processed

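Leaf RNA-Seq reads of 182 ash trees were trimmed by the authors with Trimmomatic, quantified with Salmon 0.8 against coding sequences of their long-read genome, and imported with tximport. The deposited values are TPM, scaled by the authors for length and to 1000000 per tree, so depth is unknown and no counting interval is given. The authors' comparisons with damage were not used. Trees were treated as independent samples, and relatedness was not modelled. The kinases and gene lists were chosen with earlier results of these data known. Lists came from the study's annotation of damage-associated genes. Genes named are the kinases, the 2 highest and 2 lowest in r per kinase (2 and 1 after components), the nearest identifiers and list members (up to 3 in lists of over 4), with exceptions stated.

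TPM was analysed as log2(TPM + 1), which understates changes of low genes, in R 4.3.3 by limma 3.58.1 with a trended eBayes prior and the standardised level of a kinase as covariate. Benjamini-Hochberg adjustment covered all 31002 genes at 1 TPM or more in at least 19 trees, and a call was an adjusted p of 0.05 or less. A pair's adjusted p is the larger of its 2 directions. Components came from all tested genes except the kinases, centred and unscaled. Intervals are Fisher 95% intervals. Permutation tests used numpy 2.4.6, with ranks from scipy 1.17.1. On simulated data with Fe_g38091 as lead and 31002 genes, limma called 0% of genes planted at an absolute r of 0.2 and 100% at 0.3, with 5 unchanged genes called. Other genes were shuffled independently there, and 50 were planted at each size. The simulation therefore does not give the smallest r called in the fits above, where Fe_g5474 was called with Fe_g33197.2 at -0.176. Alternatives were median-of-ratios scaling, a pseudocount of 0.1, no filter, rank correlation, other numbers of components, trees left out, and covariates for genes detected and tree number.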

Additional observations from a re-analysis of the deposited data

How the results depend on the processing

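Depth is unknown, trees may be related, and similar sequences may share reads; each limits how far a relation can be read, and none was tested. Trees were 1 group. No paired analysis was possible because there were no groups to pair. Values of the comparisons that did not keep direction or call are as follows, and the cause was not tested. With median-of-ratios scaling, the r of Fe_g38091 and Fe_g33197.2 was 0.144, genes called were 4267 with Fe_g41707.2 and 5685 with Fe_g22337, listed genes called were 16, 11 and 13 with Fe_g38091, Fe_g41707.2 and Fe_g22337, and the r of Fe_g5474 with Fe_g33197.2 was 0.0151.

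With 1 and 2 components removed in place of 5, r was 0.392 and 0.303 for Fe_g38091 and Fe_g41707.2, 0.354 and 0.267 for Fe_g38091 and Fe_g22337, 0.286 and 0.255 for Fe_g38091 and Fe_g33197.2, 0.430 and 0.412 for Fe_g41707.2 and Fe_g33197.2, and 0.475 and 0.459 for Fe_g22337 and Fe_g33197.2. Genes called were then 9012 and 1674 with Fe_g38091, 13206 and 10783 with Fe_g41707.2, 13798 and 12115 with Fe_g22337, and 15214 and 15693 with Fe_g33197.2. With 10 components they were 2 with Fe_g38091 and 19 with Fe_g33197.2, and r was -0.0393 for Fe_g41707.2 and Fe_g33197.2 and -0.00447 for Fe_g22337 and Fe_g33197.2. Near 0 the former also changed sign by rank (-0.0117), without the 9 trees farthest on component 1 (-0.0120) and without the 2 trees farthest from the kinase median (-0.0048). After 5 components, genes called were 189 with Fe_g38091 without those 9 trees, 11 with Fe_g41707.2 and 8 with Fe_g22337 without the filter, and 262 with Fe_g33197.2 by rank.

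With 5 components, listed genes called were 1, 0, 0 and 1 with Fe_g38091, Fe_g41707.2, Fe_g22337 and Fe_g33197.2 (limma, with 16, 5, 4 and 9 at an unadjusted p under 0.05 and 1, 0, 0 and 1 by rank). Over all 31002 genes 3386, 1840, 1696 and 4854 had an unadjusted p under 0.05 in those limma fits. Of the listed genes called without components, the sign turned with Fe_g38091 for Fe_g18326 (-0.0622), Fe_g3737 (-0.0177), Fe_g39849.1 (-0.0209), Fe_g36201 (-0.0193) and Fe_g32180 (0.0619), with Fe_g41707.2 for Fe_g32367.1 (-0.0123) and Fe_g26791 (-0.00263), with Fe_g22337 for Fe_g32367.1 (-0.00305), Fe_g36201 (-0.0119), Fe_g20031 (-0.0108) and Fe_g32180 (0.0640), and with Fe_g33197.2 for Fe_g16439 (-0.00774), Fe_g39849.1 (-0.0114), Fe_g32180 (0.101) and Fe_g39558 (0.00818). The r with tree number was then 0.0442 for Fe_g41707.2, 0.0368 for Fe_g22337 and -0.0803 for Fe_g33197.2, and with a pseudocount of 0.1 it was -0.203 for Fe_g22337. Over the single genes tested under alternatives, 69 further values no longer passed, and 1 newly passed, Fe_g15447 with Fe_g22337 at 2 components (r = -0.302).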
